A study of Mus musculus with 8 samples.

Results

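The dopamine receptor genes of the mouse are Drd1, Drd2, Drd3, Drd4 and Drd5, and all 5 were read by the arrays, each through 1 probe set that the platform annotation gives to that symbol alone. They were chosen by name, as the complete receptor family, out of 16026 genes tested. The samples, labelled cervical spinal cord from C57BL/6 males aged 6 weeks, filled 8 whole-transcript arrays, 2 in each of 4 groups. The acupoint group received MPTP, a toxin used to model parkinsonism, at 20 mg/kg of free base in saline by intraperitoneal injection every 24 h for 4 weeks, together with hand needling at the acupoints GB34 (3 mm deep) and LR3 (1 mm deep). The hip group received the same MPTP with needling 3 mm deep at both hips, away from these acupoints, and both kinds of needling were given in 14 sessions at 48 h intervals, 2 h after MPTP. The MPTP group had the toxin without needling, and the control group had saline alone once a day for the same 4 weeks. The protocol mentions immobilisation by hand for needled mice only. Each array carries a mouse number in its label, with no word on pooling of RNA. The p-values therefore rest on the spread of these samples alone, which could be technical, and the number of arrays limits the precision.

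Dopamine receptors are G protein-coupled receptors of 2 classes. The D1-like receptors, encoded by Drd1 and Drd5, couple to stimulatory G proteins and raise cyclic AMP. The D2-like receptors, encoded by Drd2, Drd3 and Drd4, couple to inhibitory G proteins, lower cyclic AMP and open inwardly rectifying potassium channels. The spinal cord receives dopamine mainly through descending fibres from the diencephalon, which act on dorsal horn, autonomic and motor circuits. MPTP is converted by monoamine oxidase B to a toxic cation that dopaminergic neurons take up.

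Promoter windows from RefSeq (GRCm38.p6), 250 bases before to 50 bases after a gene's start, were found for all 5 genes, with 6 windows in all because Drd1 has 2. The windows of Drd5 (chr5:38319259-38319558, plus strand) and Drd2 (chr9:49340153-49340452, plus strand) are shown because these were the members whose signal passed the test in at least 1 comparison, in opposite directions. Capitals mark the GC box letters GGGCGG on either strand.
Drd5: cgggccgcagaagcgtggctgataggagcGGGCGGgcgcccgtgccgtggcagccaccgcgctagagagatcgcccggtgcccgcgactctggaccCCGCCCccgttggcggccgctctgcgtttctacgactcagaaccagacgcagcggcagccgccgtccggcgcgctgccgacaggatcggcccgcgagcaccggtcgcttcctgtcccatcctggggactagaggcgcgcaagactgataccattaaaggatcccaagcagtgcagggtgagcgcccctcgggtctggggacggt
Drd2: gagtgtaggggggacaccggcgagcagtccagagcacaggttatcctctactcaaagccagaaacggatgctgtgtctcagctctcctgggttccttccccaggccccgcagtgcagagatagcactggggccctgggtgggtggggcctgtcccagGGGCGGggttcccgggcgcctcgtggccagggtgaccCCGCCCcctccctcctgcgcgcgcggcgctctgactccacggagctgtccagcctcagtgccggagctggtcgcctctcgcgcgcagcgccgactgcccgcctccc
Both windows were 70.3% G and C, against a median of 52.7% over 32851 promoter windows. The Drd5 window held 38 CpG dinucleotides and that of Drd2 held 23, against a median of 7. Each carried 2 matches to the GC box, a motif present in 35.7% of all windows. No window of the 5 genes held the TATA letters TATAAA (13.6% of all windows, either strand) or the cyclic AMP response element TGACGTCA (1.79%). The Drd3 window differed in composition, with 42% G and C, 2 CpG dinucleotides and 0 GC boxes, while that of Drd4 had 3 matches, a pair of which overlap, and each Drd1 window had 1. A match is a description of these letters, and the arrays do not measure binding or promoter use.

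Values are log2 RMA signals, a scale on which the authors corrected and normalised the probe intensities, and differences are log2 differences with the standard error (SE) of a limma model fitted to all 8 arrays. A difference was called where the Benjamini-Hochberg adjusted p over all 16026 genes was under 0.05. The mean signal of every receptor lay above the filter on low values, by 0.43 for Drd3 and by 1.5 to 3.19 for the other 4, so none was lost to the filter. Signals of different genes are not set against each other, because probes differ in how well they hybridise. Both control arrays stood apart from the rest in their whole distribution. For probe sets with no symbol the median signal was 4.25 to 4.39 on the 6 MPTP-treated arrays, against 4.75 on both control arrays. This shift is of the size of the receptor differences from control, and its part in them was not tested, beyond 3 other normalizations whose values are given for Drd5, Drd2 and Drd4. In bulk tissue, fewer cells of a type and less RNA per cell cannot be told apart.

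Drd5, which encodes the D1-like receptor D5, was the member called higher. Its signal was 6.23 and 6.26 with acupoint needling, 6.17 and 6.05 with hip needling and 6.09 and 6.03 with MPTP alone, against 5.61 and 5.88 in control samples. All 6 MPTP-treated arrays lay above both control arrays, the lowest of them by 0.15 above the higher control. In all 3 MPTP groups together the signal was 1.31-fold that of control (log2 difference 0.39, SE 0.11, 95% interval 0.15 to 0.63, limma adjusted p = 0.0244). In this comparison 25.2% of all genes were called, 19.9% higher and 5.35% lower, so that 1 called receptor of 5 is near the background share. All MPTP-treated arrays lay above both controls for 26.1% of all genes, and 36.9% were separated in either direction.

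From high to low the groups for Drd5 were acupoint needling (6.24 ± 0.02, SD, n = 2), hip needling (6.11 ± 0.09, n = 2), MPTP alone (6.06 ± 0.04, n = 2) and control (5.74 ± 0.19, n = 2). Acupoint needling against control rose by 0.50 (SE 0.13, limma adjusted p = 0.039), where 11.7% of all genes were called 9.55% higher and 2.17% lower. Hip needling against control was at 0.36 (limma adjusted p = 0.0799) and MPTP alone at 0.32 (SE 0.13, limma adjusted p = 0.128), which did not pass. Neighbours among the MPTP groups were not separated by the test. Acupoint minus hip needling was 0.13, with an interval of -0.16 to 0.42 and arrays that do not overlap, as for 15.2% of all genes in this direction, and hip needling minus MPTP alone was 0.05, with an interval of -0.25 to 0.34.

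The calls for Drd5 were lost in several fits without 1 array, which have fewer degrees of freedom, also where the difference hardly moved. Over the 3 MPTP groups the call was lost without control replicate 1 (difference 0.26). It was also lost without MPTP replicate 1 (0.38), MPTP replicate 2 (0.40) or hip replicate 1 (0.37). The limma adjusted p of this difference ranged from 0.00595 to 0.403 over 21 limma alternatives, of which 16 kept the call. The difference was positive in all 21, but several of them could not move it. Both filters, the eBayes settings, averaged probe sets, array weights and the replicate block each left it at 0.39. An exact two-sided permutation test of 6 MPTP-treated against 2 control arrays gave p = 0.0714, the smallest that its 28 splits allow, so that it could not pass 0.05. For acupoint needling against control 11 of 22 alternatives kept the call, with limma adjusted p-values of 0.0165 to 0.279, and differences of 0.36 without control replicate 1 to 0.64. That call was also lost without control replicate 2, either MPTP array, acupoint replicate 2 or either hip array, with the replicate number as a block (limma adjusted p = 0.0652), with array weights (0.138) and with only the groups compared (0.171). The MPTP-alone and hip arrays do not enter this difference, which stayed at 0.5 without any of them.

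**Figure D1:**
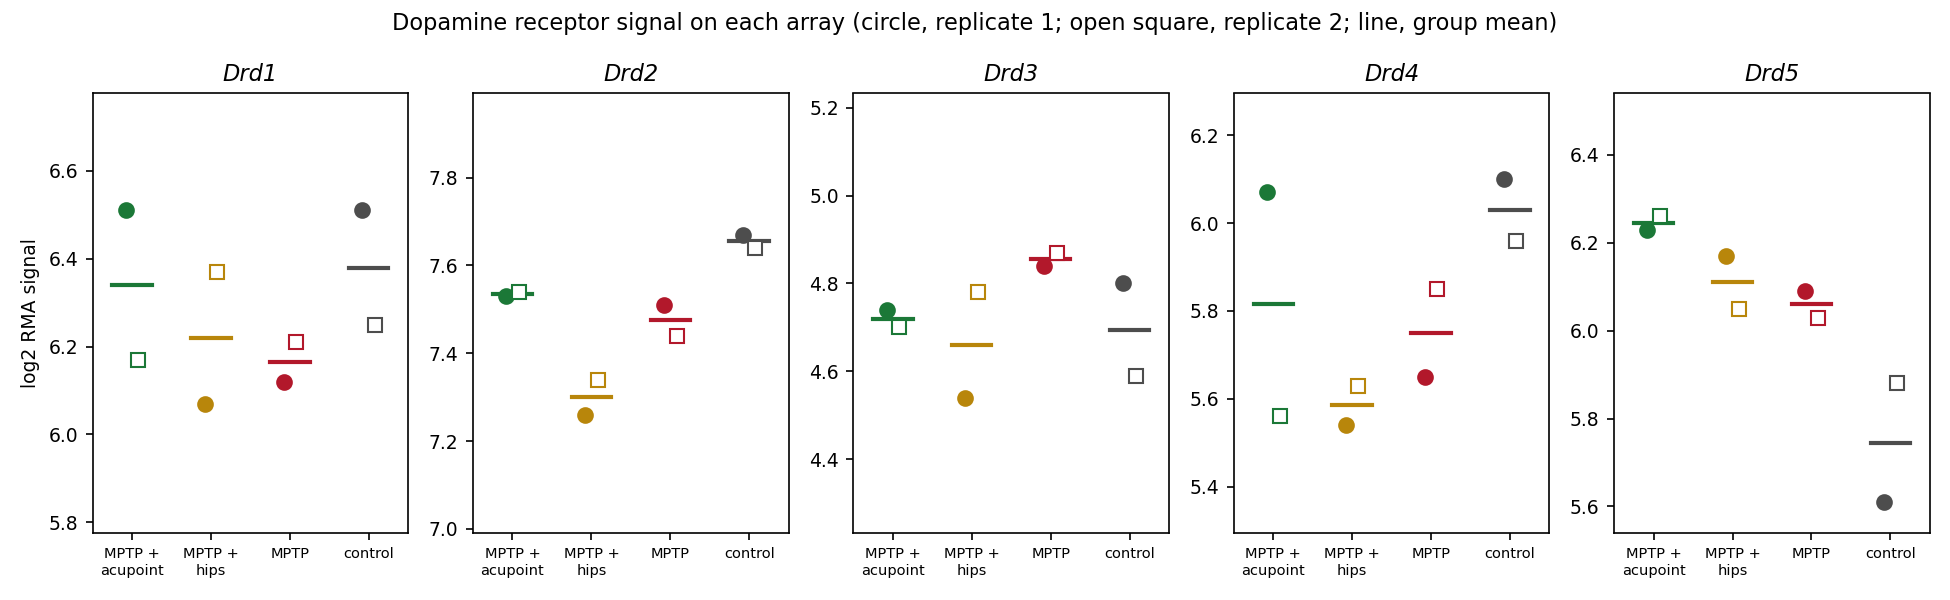
Log2 RMA signal (vertical axis, 1 unit high in every panel, not starting at 0) of the 5 dopamine receptor genes on each of 8 arrays, by group; filled circles are replicate 1, open squares replicate 2 and lines the mean of 2 arrays. Drd5 is lower on both control arrays, 5.61 and 5.88, than on any MPTP-treated array, and Drd2 is higher on both, 7.67 and 7.64.

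Drd1 encodes the D1 receptor, the most abundant dopamine receptor of the brain and the founding member of the stimulatory class. No comparison called it. Its signal was 6.51 and 6.17 with acupoint needling, 6.07 and 6.37 with hip needling and 6.12 and 6.21 with MPTP alone, against 6.51 and 6.25 in control samples. Replicates of 1 group differed by up to 0.33, so the groups overlap, apart from MPTP alone, where both arrays were below both controls. This was so for 22.1% of all genes. MPTP minus control was -0.22 (SE 0.16, interval -0.58 to 0.15, limma adjusted p = 0.409), and the 3 MPTP groups together minus control were at -0.14 (interval -0.43 to 0.16, limma adjusted p = 0.488). From low to high the groups were MPTP alone (6.16), hip needling (6.22), acupoint needling (6.34) and control (6.38), and no neighbours differed beyond their spread. Drd1 and Drd5, which share a class, did not share a profile, with Drd5 at its lowest on control replicate 1, where Drd1 was at 6.51, its highest value. The sign of the Drd1 difference over the 3 MPTP groups turned, to 0.01, with arrays centred on their medians.

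Drd2 encodes the D2 receptor, which serves both as an autoreceptor on dopamine neurons and as a receptor on their targets. It was the member called lower, for hip needling against control. Drd4 lay further below control in every comparison with control (-0.44, SE 0.17, for hip needling) but was not called. The Drd2 signal was 7.53 and 7.54 with acupoint needling and 7.26 and 7.34 with hip needling. It was 7.51 and 7.44 with MPTP alone, against 7.67 and 7.64 in control samples. Replicates agreed closely, with gaps of 0.00 to 0.08 within a group, and all 6 MPTP-treated arrays were below both controls, which 10.9% of all genes also showed. Hip needling against control fell by 0.35 on the log2 scale, a signal 1.28-fold lower (SE 0.09, interval -0.55 to -0.15, limma adjusted p = 0.0258). In that comparison 19.2% of all genes were called, 15.4% higher and 3.87% lower.

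Over the 3 MPTP groups together Drd2 was at -0.22 against control (SE 0.07, interval -0.38 to -0.05, limma adjusted p = 0.0579), and MPTP alone minus control was -0.18 (SE 0.09, limma adjusted p = 0.201), so neither passed. From low to high the groups were hip needling (7.30 ± 0.06, SD, n = 2), MPTP alone (7.47 ± 0.05, n = 2), acupoint needling (7.54 ± 0.00, n = 2) and control (7.65 ± 0.02, n = 2). Each neighbouring pair of groups had arrays that do not overlap. In those pairs the same separation was found for 15.6% of all genes (acupoint needling below control), 12.3% (acupoint needling above MPTP alone) and 19.2% (hip needling below MPTP alone). The tests of neighbours gave limma adjusted p-values of 0.459 for acupoint needling against control, 1 for acupoint needling against MPTP alone and 1 for hip needling against MPTP alone. Acupoint minus hip needling was 0.23 (SE 0.09, interval 0.03 to 0.44, unadjusted p = 0.0279, limma adjusted p = 0.936).

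The Drd2 call for hip needling was kept in 14 of 22 alternatives, with limma adjusted p-values of up to 0.575. The sign was the same in all, though several of them, as for Drd5, could not move the difference. Centring the arrays on their medians gave -0.19 (limma adjusted p = 0.24) while it moved the median of all genes in this comparison to 0.217, from 0.054 in the values as deposited. The call was also lost without either control array, either MPTP array or either hip array (limma adjusted p-values of 0.0633 to 0.187, differences of -0.39 to -0.31). For the 3 MPTP groups together, 5 of 21 limma alternatives called Drd2, among them cyclic loess (-0.30, limma adjusted p = 0.0193) and a repeated quantile normalization (-0.28, 0.0212), while centring moved the difference to -0.07 (0.612).

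Drd3 encodes the D3 receptor, a D2-like receptor with high affinity for dopamine. Its signal was 4.74 and 4.70 with acupoint needling, 4.54 and 4.78 with hip needling and 4.84 and 4.87 with MPTP alone, against 4.80 and 4.59 in control samples. The whole range over 8 arrays was 0.33, and the gap between the control replicates was 0.22. The group means were 4.66 for hip needling, 4.72 for acupoint needling and 4.85 for MPTP alone, against 4.69 for control. Both acupoint arrays and both hip arrays lay below both MPTP arrays, as did those of 11.9% and 19.2% of all genes, and the tests gave -0.14 (interval -0.47 to 0.20) and -0.19 (interval -0.53 to 0.15), each with a limma adjusted p of 1. No comparison called Drd3, with limma adjusted p-values of 0.523 for MPTP minus control (0.16, interval -0.18 to 0.49) and 0.81 for the 3 MPTP groups together (0.05, interval -0.22 to 0.32). This signal lies in the lowest decile of the genes tested.

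Drd4 encodes the D4 receptor, the third of the D2-like class. Its signal was 6.07 and 5.56 with acupoint needling, 5.54 and 5.63 with hip needling and 5.65 and 5.85 with MPTP alone, against 6.10 and 5.96 in control samples. Of the MPTP-treated arrays 5 lay below both controls, and acupoint replicate 1 lay between them. The share of all genes with this pattern was not counted. The gap of 0.50 between the acupoint replicates was the widest within any group for any member. Hip needling minus control was -0.44 (SE 0.17, interval -0.83 to -0.05, unadjusted p = 0.0307, limma adjusted p = 0.108) and the 3 MPTP groups together minus control were at -0.31 (SE 0.14, interval -0.63 to 0.01, limma adjusted p = 0.143), so Drd4 was not called. From low to high the groups were hip needling (5.59), MPTP alone (5.75), acupoint needling (5.82) and control (6.03). The arrays of neighbouring groups overlap, except that both hip arrays lay below both MPTP arrays, as for 19.2% of all genes (difference -0.16, interval -0.55 to 0.23, limma adjusted p = 1). Without acupoint replicate 1 the Drd4 difference over the 3 MPTP groups together was -0.40. The hip needling difference stayed at -0.44 without either acupoint array, as these arrays do not enter it. With only the groups compared it was called at the same -0.44 (limma adjusted p = 0.0478). The share of all genes called in that fit is not given here.

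The comparison of MPTP alone with saline asked whether the toxin by itself changed the receptors. For all 5 genes the arrays of these groups did not overlap, with Drd1, Drd2 and Drd4 lower and Drd3 and Drd5 higher after MPTP. Such separation was found for 64% of all genes, 41.9% higher and 22.1% lower. None of the 5 was called by limma, where 16.8% of all genes were, 13.7% higher and 3.1% lower. Without adjustment Drd5 passed 0.05 and the other 4 did not, where 31.6% of all genes passed. The median difference over the 5 receptors was -0.18, against 0.06 over all genes tested. In the F-test over the 4 groups, which called 10.8% of all genes, the limma adjusted p was 0.112 for Drd2, 0.113 for Drd5 and 0.38 to 0.797 for the other 3.

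The comparisons of needling with MPTP alone asked whether acupuncture moved the receptors in treated mice. No receptor was called with acupoint needling, with hip needling or between them, and 0 of 16026 genes were called by limma in any of the 3 comparisons (0%). At an unadjusted p under 0.05 there were 201 genes (1.25%) for acupoint needling, 273 (1.7%) for hip needling and 604 (3.77%) between them. Drd2 was among the last, and no other receptor was in any of the 3 sets. All 3 shares lie below the share of 0.05 that this threshold passes on average where nothing differs. The reason was not tested, and the lack of calls does not show that needling left these genes unchanged. With acupoint needling the differences ran from -0.14 for Drd3 to 0.18 for Drd1 and Drd5. With hip needling they ran from -0.19 for Drd3 to 0.06 for Drd1. The widest intervals were those of Drd4, -0.32 to 0.46 with acupoint needling and -0.55 to 0.23 with hip needling. For Drd2, the member with the smallest SE, they were -0.14 to 0.27 with acupoint needling and -0.37 to 0.03 with hip needling. The MPTP-alone arrays are shared by these comparisons and by MPTP minus control, so their differences are not independent.

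**Figure D2:**
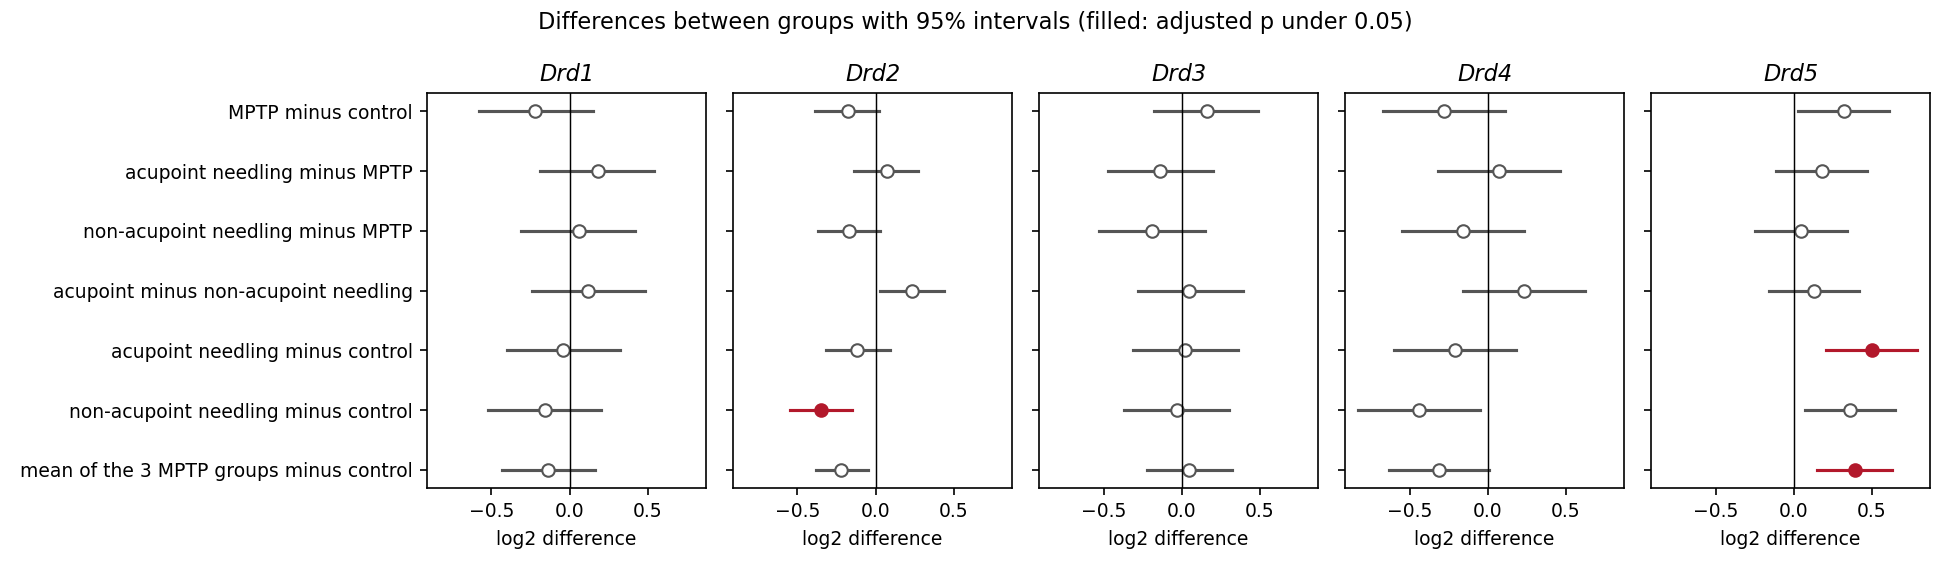
Log2 differences (horizontal axis) of each receptor gene in 7 comparisons, named on the vertical axis, with 95% intervals from limma; filled red points passed an adjusted p of 0.05. The 3 filled points are Drd5 for acupoint needling minus control (0.50) and for all 3 MPTP groups minus control (0.39), and Drd2 for hip (non-acupoint) needling minus control (-0.35).

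The rest of the dopamine pathway was taken from fixed lists of 63 genes, of which 55 were tested. Over the 3 MPTP groups against control, 21 of the 55 rose and 0 fell, where 19.9% of all genes rose and 5.35% fell. By signal, the share of genes called higher went from 0.686% in the lowest decile of those tested to 48.4% in the highest. Of 7 genes tested for dopamine synthesis, transport and breakdown, 3 rose, with a list median of 0.34 against 0.06 over all genes. Maob and Maoa, the monoamine oxidases that break dopamine down, rose by 0.72 (SE 0.09) and 0.55 (SE 0.07), and Ddc, the decarboxylase that makes dopamine from its precursor, rose by 0.58 (SE 0.11, limma adjusted p = 0.00607). Th, the rate-limiting enzyme of dopamine synthesis, was at 0.34 (SE 0.18, limma adjusted p = 0.215), and Slc6a2, the noradrenaline transporter that also takes up dopamine, was at 0.33 (limma adjusted p = 0.0888).

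Among G proteins and adenylyl cyclases, through which the receptors act on cyclic AMP, 4 of 14 rose, where 19.9% of all genes rose. The list median of 0.07 and its 10 of 14 positive differences lie near those of all genes, with a median of 0.06 and 41% of differences below 0. Those 4 were the inhibitory G protein subunit genes Gnaz (0.46, SE 0.08), Gnai1 (0.35, SE 0.07) and Gnai3 (0.44, SE 0.12) and the cyclase gene Adcy5 (0.29, SE 0.06). Adcy2 and Adcy3 were at 0.20 and 0.19 and did not pass. Of 15 downstream effectors 7 rose (list median 0.18). The 4 with the smallest p were the protein kinase A regulatory subunit gene Prkar1a (0.66, SE 0.07, limma adjusted p = 0.000638), the potassium channel gene Kcnj3 (0.51), the kinase A catalytic subunit gene Prkacb (0.32) and the kinase gene Gsk3b (0.36). Ppp1r1b, which encodes the dopamine-regulated phosphatase inhibitor DARPP-32 and was picked out after its value was seen, rose by 0.35 (SE 0.08, limma adjusted p = 0.011).

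Of 19 receptor regulators and partners 7 rose, with a list median of 0.19. They included the calcium sensor gene Ncs1 (0.41, SE 0.07), the receptor kinase genes Grk3 (0.41, SE 0.09) and Grk5 (0.56, SE 0.13) and Caly (0.33, SE 0.08), which encodes calcyon. Arrb2, the gene of an arrestin that binds phosphorylated receptors, was at -0.26 (limma adjusted p = 0.0552). Of 13 adrenergic and histamine receptor genes listed, 5 were tested, none was called, and their differences ran from -0.07 for Hrh3 to 0.10 for Hrh1. Acupoint needling and hip needling minus MPTP alone called 0 of the 55 pathway genes. The median difference over genes depended on signal in the values as deposited. It was -0.0773 to -0.0363 in the 3 lowest deciles of genes tested and 0.125 to 0.213 in the 4 highest. In those 4 deciles 26.6% to 48.4% of genes were called higher over the 3 MPTP groups. Pathway genes of high signal thus sit on a raised baseline, and the shares called in their lists were not matched for signal.

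**Figure D3:**
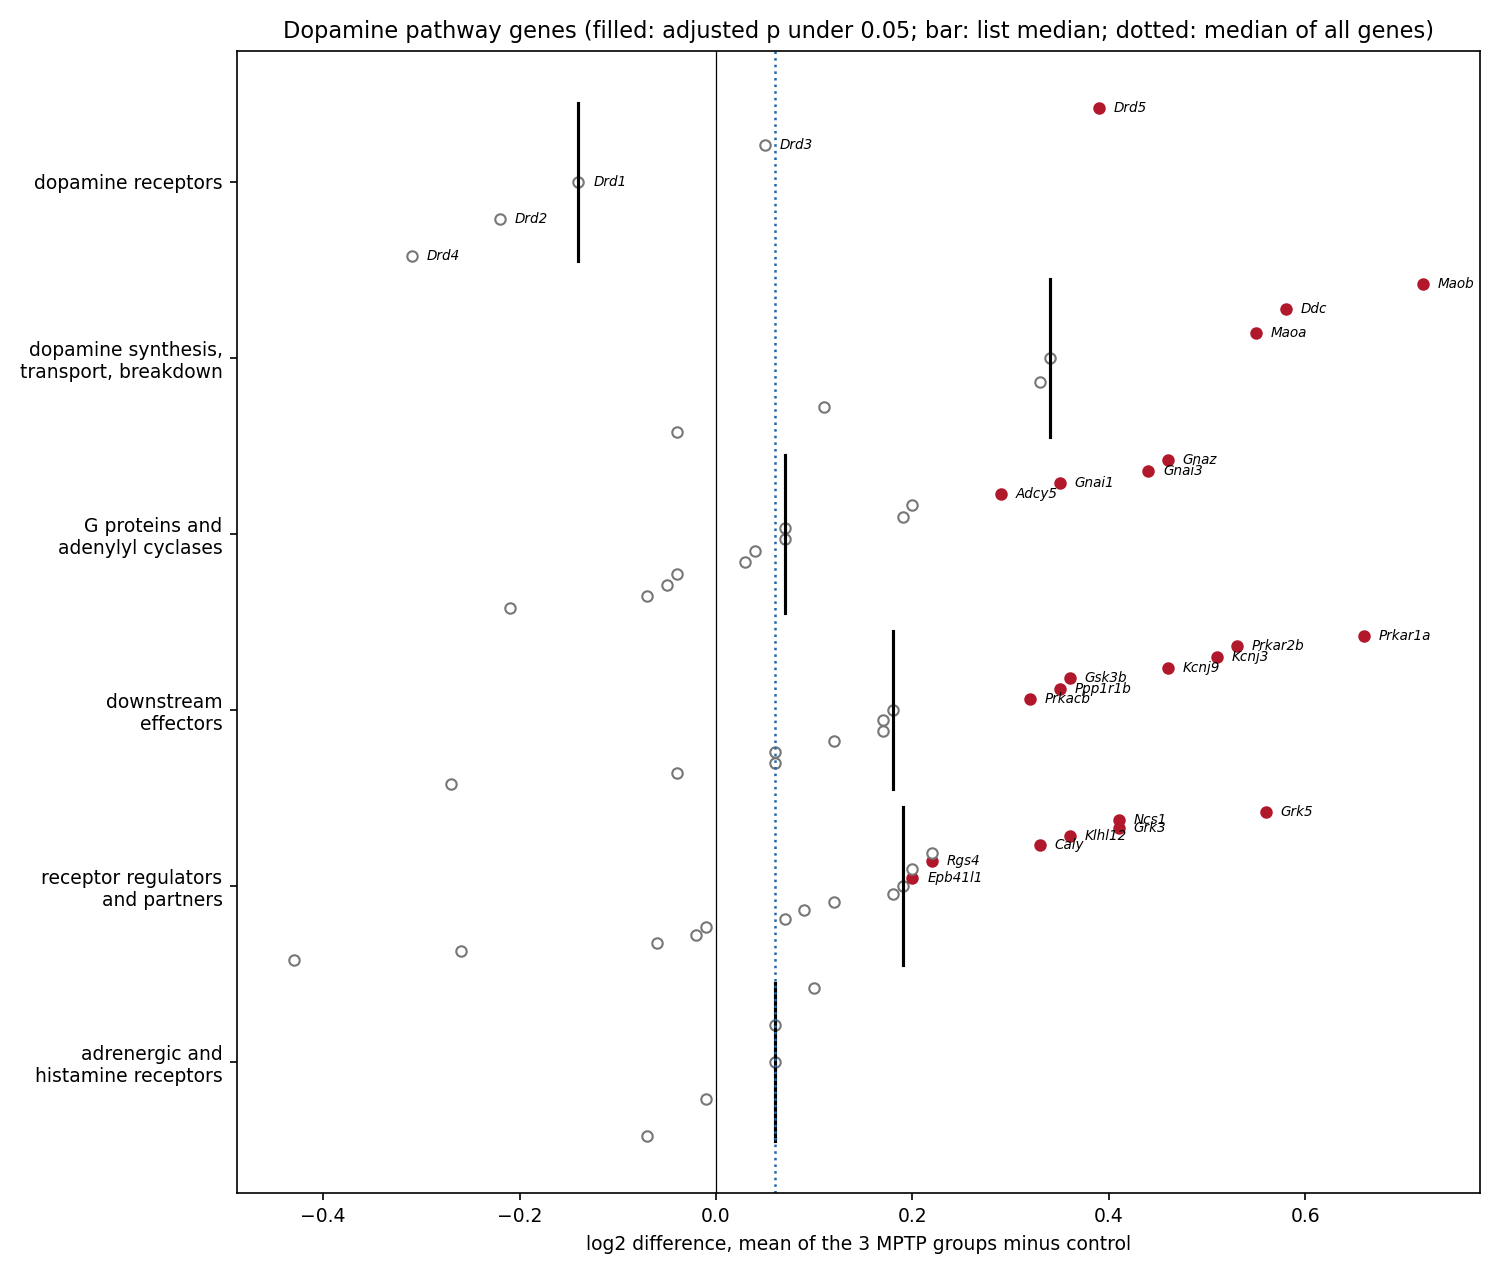
Log2 difference between the mean of the 3 MPTP groups and control (horizontal axis) for the genes tested in each list; filled red points passed an adjusted p of 0.05, black bars are list medians and the dotted line is the median of all genes, 0.06. Drd5 is the only filled receptor, 3 receptors lie below 0, and every filled point of the other lists lies above 0.

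That baseline bears on the members by their signal. In the decile of genes that holds Drd2 the median difference over the 3 MPTP groups was 0.0933, with 22% called higher and 6.24% called lower. In the decile that holds Drd5 and Drd1 the median was 0.0152, with 9.36% called higher and 6.24% lower. Drd4 lies in a decile with a median of -0.0363 and 5.56% called lower. With cyclic loess, which removes a trend with signal, the difference over the 3 MPTP groups was 0.42 for Drd5 (limma adjusted p = 0.022). With quantile normalization again it was 0.53 (0.00906) and with centred arrays 0.54 (0.00595). For Drd4 the same 3 normalizations gave -0.26, -0.18 and -0.16, none of them called.

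The tissue label was checked against marker genes. Over the 3 MPTP groups against control, 19.9% of all genes were called higher and 5.35% lower. The share called higher went from 0.686% in the lowest decile of signal to 48.4% in the highest. The counts called in the marker lists below were not matched for signal. All 12 spinal neuron and positional Hox genes listed were tested, with a mean signal of 8.24 to 8.46 on the MPTP-treated arrays, against 7.98 and 8.23 on the control arrays. Of these 12, 5 rose over the 3 MPTP groups and 0 fell: Chat (0.82) and Slc5a7 (0.80), cholinergic genes of motor neurons, Slc17a6 (0.71), a glutamate transporter gene, Lbx1 (0.41) and Hoxc8 (0.68). Hoxc8 was at 8.51 and 9.57 on the control arrays. Hoxc5 was at 6.33 and 6.31 with acupoint needling, against 6.89 and 7.14 with MPTP alone and 7.23 and 6.91 with hip needling. Whether the arrays match in cord level was not tested. Of 7 forebrain markers listed, 4 were tested, with a mean of 5.46 to 5.85, against 5.61 and 5.66, and none was called. Their signals over the 8 arrays were 4.27 to 4.58 for Tbr1, 6.17 to 6.46 for Emx1, 5.31 to 6.08 for Gpr6 and 5.78 to 6.32 for Rgs14, so this list does not show forebrain transcripts to be absent. Glia markers averaged 10.11 to 10.26, against 9.81 and 9.73, and 5 of 7 rose, among them Aldh1l1 (0.74) and Gfap (0.47) of astrocytes. Blood markers averaged 6.12 to 7.33, against 5.86 and 5.92, and 2 of 5 rose, Alas2 (1.92) and Ppbp (1.36). Markers of skeletal muscle averaged 5.23 to 6.77 on the MPTP-treated arrays, against 7.28 and 8.82 on the control arrays, and 12 of 14 fell over the 3 MPTP groups. Sensory ganglion markers averaged 4.29 to 4.81, against 5.50 and 4.85, and 2 of 4 fell. Of 8 nerve and meninges markers none was called.

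Muscle markers thus mostly fell, and sensory ganglion markers fell in part, in the same contrast as Drd5. Glia, blood and spinal neuron markers rose in part there, where 19.9% of all genes were called higher. With the mean of the muscle markers as a covariate, Drd5 stood at 0.56 over the 3 MPTP groups (limma adjusted p = 0.403), in a fit that called 9 genes of 16026. In the same fit Drd4 stood at -0.04 (limma adjusted p = 0.982), and Drd2 for hip needling at -0.36 (0.575). Control replicate 2 and acupoint replicate 1, the arrays with the most muscle signal in their groups, were also left out together. Drd5 then stood at 0.53 and Drd4 at -0.47 over the 3 MPTP groups, and Drd2 for hip needling at -0.37. The control array that was kept still had a muscle marker mean of 7.28, against 5.23 to 5.65 on the MPTP-treated arrays kept. Muscle signal and group are thus not separated in this fit. These fits were chosen after the data were seen.

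Nerve and meninges markers differed within groups, with means of 7.94 and 5.74 on the acupoint arrays, 6.08 and 6.52 on the hip arrays and 5.90 and 7.10 with MPTP alone, against 7.89 and 5.97 on the control arrays. In all 4 groups the replicate with more of these markers was also the higher for Drd1, Drd3 and Drd4 and the lower for Drd5, while Drd2 followed them in 2 groups. Over all genes 7.61% followed them in all 4 groups and 10.9% opposed them in all 4. With the mean of these markers as a covariate, Drd5 stood at 0.37 over the 3 MPTP groups (limma adjusted p = 0.021), Drd2 for hip needling at -0.35 (0.0274) and Drd4 for hip needling at -0.34 (0.0914). The part of sensory ganglion, glia, blood and spinal neuron RNA in these results was not tested.

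**Figure D4:**
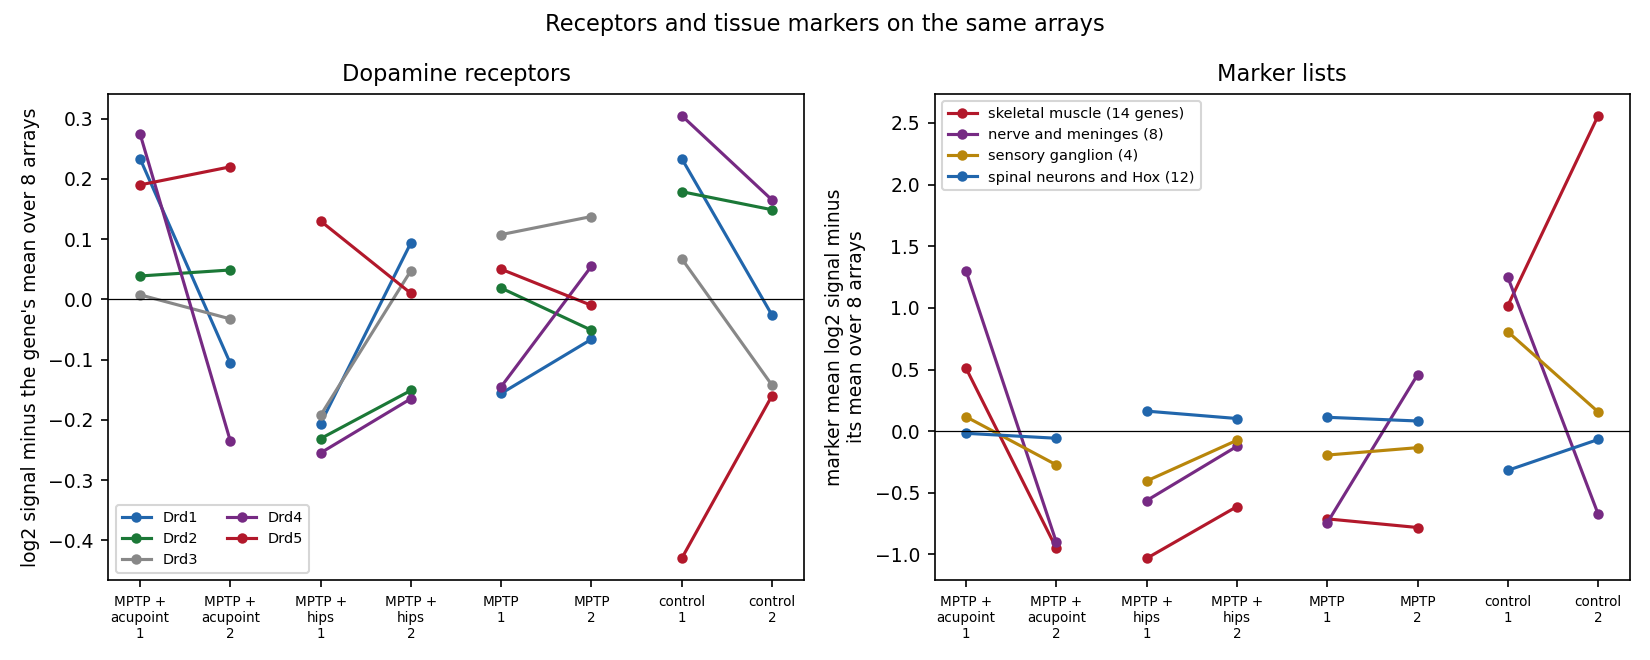
Left, log2 signal of each receptor gene minus its mean over 8 arrays; right, mean log2 signal of 4 marker lists minus its mean over 8 arrays; lines join the 2 replicates of a group on the horizontal axis. The muscle list is highest on control replicate 2 (mean 8.82), and the nerve and meninges list on acupoint replicate 1 (7.94) and control replicate 1 (7.89), where Drd1 and Drd4 are also high.

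The members were not alike in profile. Likeness was measured as the root mean square difference between profiles standardised over the 8 arrays. It is 0 for the same shape, 1.32 for unrelated shapes and above 1.32 for shapes that tend to be opposed. Drd1 and Drd4 were the closest pair of receptors, at 0.615, followed by Drd2 and Drd4 at 0.722, and Drd5 was at 1.44 to 1.67 from the other 4. Each receptor had genes outside the family that were closer. The nearest were Shisa3 (0.143) and Nfatc4 (0.219) for Drd1, Cd3e (0.238) and Tlcd3a (0.251) for Drd2, Myo3b (0.282) and Srsf4 (0.339) for Drd3, Nr4a1 (0.16) and Muc4 (0.205) for Drd4, and Smcr8 and Prickle2 (0.209 each) for Drd5. Over all genes the nearest gene was at a median of 0.185, with a 5th to 95th percentile range of 0.0763 to 0.326, so distances of this size are usual with 8 arrays.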

How the data were processed

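Per the labels' protocols, 300 ng of total RNA per sample went through Affymetrix whole-transcript labelling and onto 1 array each. Per the submitters' processing notes, the authors used Affymetrix Expression Console and RMA, with versions not given in the sources used here, and deposited log2 signals of 35557 probe sets for 8 arrays. That the scale is log2 was judged from the values' range. No batch was tested, since scan dates were not used here.

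Gene names came from the platform annotation (1 symbol for 21789 probe sets, several for 1621, none for 12147). A gene was tested through its probe set of highest mean, if that exceeded 4.297, the 30th percentile over probe sets, which left 16026 genes. The model held 4 group means over the 8 arrays and used limma 3.58.1 (R 4.3.3, eBayes with an intensity trend, 4 residual and 5.34 prior degrees of freedom, two-sided, Benjamini-Hochberg within each of 7 contrasts), and the fit was tested on simulated data. Named pathway genes are, per list, up to 4 with the smallest p among those called and up to 2 others. The 2 genes nearest each receptor skip predicted genes, receptors of smell and small RNAs. Plots used matplotlib 3.10.9. The receptors, the lists and the tests were chosen with earlier results of these data known. Alternatives were 3 normalizations, 2 filters, 4 choices of model, averaged probe sets, an exact permutation test, a replicate block, each array left out, and 3 added after seeing the data.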

Additional observations from a re-analysis of the deposited data

Results flagged for a closer look

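The Drd2 means of the needled groups lay on opposite sides of MPTP alone. Acupoint needling minus MPTP alone was 0.07 (interval -0.14 to 0.27). Hip needling minus MPTP alone was -0.17 (interval -0.37 to 0.03), and neither difference was called. Both acupoint arrays (7.53 and 7.54) lay above both MPTP arrays (7.51 and 7.44), and both hip arrays (7.26 and 7.34) lay below them. Acupoint minus hip needling was 0.23 (unadjusted p = 0.0279), and the test of this difference did not pass (limma adjusted p = 0.936). The same opposition, in either direction, was found for 413 of 16026 genes (2.58%). Over the alternatives the difference was 0.19 to 0.28 and was never called, with limma adjusted p-values of 0.197 to 1.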

How the results depend on the processing

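The number of receptors called (of 5) was 0 for MPTP minus control, 1 for acupoint needling minus control (Drd5), 1 for hip needling minus control (Drd2), 1 for the 3 MPTP groups together against control (Drd5) and 0 in the F-test. For MPTP minus control it was 1 after quantile normalization again, with arrays centred on their medians, and with control replicate 2 and acupoint replicate 1 left out together (Drd5 each time). For acupoint needling minus control it was 0 with only the groups compared, with array weights, with the replicate block and with the muscle covariate, and 2 with those 2 arrays left out. For hip needling minus control it was 2 after quantile normalization again and with only the groups compared, 0 with the muscle covariate and 3 with those 2 arrays left out; centring left 1, with Drd5 in place of Drd2. For the mean of the 3 MPTP groups it was 2 after quantile normalization again, after cyclic loess, with the filter at the 50th percentile and with those 2 arrays left out, and 0 with the muscle covariate. The F-test called 1, Drd5, with centred arrays. Leaving out 1 array gave 0 to 1 for acupoint needling minus control, 0 to 2 for hip needling minus control, 0 to 3 for the mean of the 3 MPTP groups, and 0 throughout for the other comparisons. The 3 comparisons without control called 0 receptors in every alternative. Where a group was left with 1 array, that array was assumed to vary like the other groups. Of all genes, 16.8% were called for MPTP minus control in the values as deposited. For needling minus control it was 11.7% at acupoints and 19.2% at the hips, for the 3 MPTP groups 25.2% and in the F-test 10.8%. In MPTP minus control 2050 genes rose and 631 fell after quantile normalization again, and 4028 and 218 with centred arrays. For the 3 MPTP groups 3219 rose and 1074 fell after quantile normalization again, and 2206 and 1331 after cyclic loess.

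Counts over all genes moved more: 2696 for MPTP minus control became 4 to 4246 over the alternatives, 1878 for acupoint needling minus control 12 to 4046, 3083 for hip needling minus control 4 to 4637, 4041 for the 3 MPTP groups 9 to 5870, and 1724 in the F-test 0 to 4030. The lowest counts came with the muscle covariate. The needling comparisons reached 3, 13 and, between the needled groups without acupoint replicate 2, 622. Called genes that were lower made up 21.2% over the 3 MPTP groups, 37.6% after cyclic loess and 6.09% with centred arrays.

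Signs turned for differences that were not called, and the cause was not tested. After quantile normalization again Drd1 for acupoint needling minus control was 0.03 and Drd3 for hip needling minus control 0.22. After cyclic loess Drd3 was 0.11 for hip needling minus control and 0 for acupoint minus hip needling. With centred arrays Drd1 was 0.09 for acupoint needling minus control, 0 for hip needling minus control and 0.01 for the 3 MPTP groups, Drd2 for acupoint needling minus control was 0.02 and Drd3 for hip needling minus control 0.13. With the muscle covariate Drd4 was 0.01 for MPTP minus control and 0.02 for acupoint needling minus control, Drd1 for acupoint needling minus control was 0.05, and Drd3 was -0.05 for acupoint needling minus control and -0.04 for the 3 MPTP groups. With the nerve covariate Drd3 for hip needling minus control was 0.01. With those 2 arrays left out together Drd4 was -0.18 for acupoint needling minus MPTP and -0.02 for acupoint minus hip needling, Drd1 for the second was -0.05, and Drd3 was -0.11 for acupoint needling minus control and -0.07 for the 3 MPTP groups. Leaving out 1 array gave ranges across 0 for acupoint needling minus MPTP (Drd4, -0.18 to 0.32), hip needling minus MPTP (Drd1, -0.09 to 0.20; Drd5, -0.01 to 0.11), acupoint minus hip needling (Drd1, -0.05 to 0.29; Drd3, -0.07 to 0.18; Drd4, -0.02 to 0.48), acupoint needling minus control (Drd1, -0.21 to 0.13; Drd3, -0.09 to 0.13; Drd4, -0.46 to 0.04), hip needling minus control (Drd3, -0.15 to 0.09) and the 3 MPTP groups (Drd3, -0.06 to 0.16).

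The replicate numbers are shared by the groups. The correlation of same-numbered arrays' deviations from their group means ran from -0.33 to 0.17 over 6 pairs of groups. No common shift by number was seen, and the samples were treated as unpaired. This check cannot show that no pairing exists, because nerve and muscle markers also differed between replicates. With the replicate block Drd5 for acupoint needling minus control stood at 0.50 (limma adjusted p = 0.0652), and no other receptor call changed. With only the groups compared, the mean of the 3 MPTP groups and the F-test use the same arrays and were not refitted, and the filter at the 50th percentile removed Drd3. Signal over background cannot be read from RMA values, which limits Drd3 most, the member nearest the filter.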
